A study of Mus musculus with 18 samples.

Results

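The transcription factor genes described here are associated with naive and stem-like T cells: Tcf7, Lef1, Sox4, Tcf4, Ikzf2, Bach2, Foxo1, Satb1, Myb and Id3. They were chosen as a list of 10 symbols, and every probe set paired with exactly 1 of these symbols in the array annotation was taken. For 9 of the 10 genes this gave 35 probe sets out of 45101 on the array, and 28 of them lay above a filter on low values. Tcf7 was not analysed here. All 9 genes were among the 13780 genes tested. Levels are log2 RMA values, so a difference of 1 is a doubling, and each gene is given by its probe set with the highest mean over the arrays unless another is named.

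RNA came from CD8 T cells of F5 mice on a C57Bl/6 background, which carry 1 transgenic T cell receptor, and was measured on 18 arrays in 8 groups. TIM memory cells came from F5 mice immunised 2 times with the NP68 peptide, were taken on day 45 and sorted from the spleen. They were cultured for 20 hours with IL-4 (20 ng/mL) and IL-7 (10 ng/mL), with IL-4, with IL-7 or in medium alone (2 arrays each), or measured ex vivo without culture (4 arrays). Naive cells, sorted from the spleen of F5 mice that the labels do not describe as immunised, were cultured with IL-4 and IL-7 or with IL-7 (2 arrays each) or measured ex vivo (2 arrays). No naive cells in medium alone were among the samples, so in naive cells the effects of 20 hours of culture and of IL-7 cannot be told apart. In the labels, biological replicates are named for ex vivo cells and plain replicates for cultured cells, and the design text says that the cultured memory cells came from 2 of the 4 sorted memory populations. The p-values therefore measure the spread between these arrays, which may in part be technical. All the mice carried the same transgenic receptor, which limits these groups as a model of a mixed T cell pool.

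Naive and long-lived memory T cells keep a set of transcription factors that hold cells in a resting, self-renewing state. TCF7 (TCF-1) and LEF1 are HMG-box factors that bind the same DNA motif and can recruit beta-catenin or TLE corepressors, and SOX4 is another HMG-box protein. TCF4 (E2-2) is a basic helix-loop-helix E protein, while ID3 lacks a DNA-binding domain and holds E proteins off DNA. FOXO1 is a forkhead factor that is kept out of the nucleus by AKT signalling and drives homing and survival genes such as Ccr7, Klf2 and Il7r. BACH2 restrains effector genes at AP-1 sites, MYB sustains stem-like CD8 memory cells, SATB1 organises chromatin, and IKZF2 (Helios) is an Ikaros-family zinc finger protein.

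Promoter windows of 300 bases, 250 before and 50 after an annotated transcription start, are shown for Myb, whose group means were lowest with IL-4 in memory cells, Lef1, the gene that passed in memory culture with IL-7, and Sox4, which was near the filter value in memory cells. They are from RefSeq on GRCm38.p6, read 5′ to 3′ on the gene's own strand, and lie at chr10:21160935-21161234 (minus strand) for Myb, chr3:131112541-131112840 (plus strand) for the third of 4 windows of Lef1 and chr13:28953650-28953949 (minus strand) for Sox4. Capitals mark matches to the motifs searched other than the E-box CANNTG.
Myb: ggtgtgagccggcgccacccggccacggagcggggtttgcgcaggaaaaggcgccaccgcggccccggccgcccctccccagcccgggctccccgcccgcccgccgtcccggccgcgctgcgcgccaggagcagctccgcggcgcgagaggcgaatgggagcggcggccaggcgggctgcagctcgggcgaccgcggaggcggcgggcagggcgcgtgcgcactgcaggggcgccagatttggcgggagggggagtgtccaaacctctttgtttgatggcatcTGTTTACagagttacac
Lef1: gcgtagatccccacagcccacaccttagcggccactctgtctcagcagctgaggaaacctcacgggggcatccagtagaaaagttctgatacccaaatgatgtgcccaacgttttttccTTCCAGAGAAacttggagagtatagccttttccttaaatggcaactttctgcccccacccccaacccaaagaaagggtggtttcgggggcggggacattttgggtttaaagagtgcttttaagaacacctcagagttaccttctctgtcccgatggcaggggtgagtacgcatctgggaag
Sox4: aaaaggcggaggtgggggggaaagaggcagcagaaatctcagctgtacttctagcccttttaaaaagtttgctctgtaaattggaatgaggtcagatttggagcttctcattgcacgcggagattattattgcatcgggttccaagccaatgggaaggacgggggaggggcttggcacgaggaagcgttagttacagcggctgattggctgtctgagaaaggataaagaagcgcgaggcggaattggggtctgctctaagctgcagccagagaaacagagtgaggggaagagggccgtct
The motifs searched on both strands were CTTTGAA and CTTTGAT (TCF/LEF), GTAAACA (FOXO), TTCNNNGAA and the same motif with 1 more N (STAT) and CANNTG (E-box, the class of site bound by E proteins). They can overlap. The table held 16 windows for 8 of the 10 genes and none for Ikzf2 or Tcf4. The Myb window held GTAAACA on the minus strand from base 34 after the start, and the Lef1 window held the longer STAT motif from base -131. TTCNNNGAA stood at base -140 in the Bach2 window, and the second Tcf7 window held GTAAACA. The other windows of these genes, that of Sox4 included, held no match beyond the E-box. For comparison, 3.65% of all 32851 windows of this length held GTAAACA, 8.3% TTCNNNGAA, 6.95% the longer STAT motif, 5.14% CTTTGAA, 3.73% CTTTGAT and 72.3% CANNTG. A match is a stretch of letters and not a measured binding site.

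The CD8 T cell markers were present in all groups, and the memory markers separated memory from naive cells to differing degrees. Of 8 CD8 T cell markers 7 were measured, and all 7 lay above the filter value of 4.06 on all 18 arrays, with an array mean of 11.53 to 12.01. The mean of Cd44, Il2rb, Cxcr3 and Ccl5, which rise in memory CD8 cells, was 10.63 to 10.81 on memory and 6.79 to 6.96 on naive ex vivo arrays. Ccl5 (11.96 against 5.84) and Cxcr3 (12.36 against 6.92) differed most. Cd44 was at 9.81 against 6.62, which did not pass (limma, adjusted p = 0.0898), and Il2rb at 8.78 against 8.10. After culture with IL-7, Il2rb was at 6.79 in memory and 6.73 in naive cells. Ccr7, which is high in naive and central memory cells, averaged 11.64 in memory and 11.45 in naive ex vivo cells. Of the markers of other cell types, Rag1, Rag2, Kit, Itgam, Ebf1 and Foxp3 were under the filter value in every group mean. Others were above it in every group mean, among them Cd79b (7.31 to 8.64), Zbtb7b (6.26 to 7.20), Cd68 (5.26 to 6.56), Csf1r (5.56 to 6.24) and Dntt (9.44 to 11.88). Array medians ran from 4.62 to 4.76. The 3′ minus 5′ difference of the Gapdh control probes, a measure of RNA quality and amplification, was 2.67 to 3.36 on cultured arrays other than medium array 2 and 2.07 to 2.69 on ex vivo arrays, and its part in the culture results was not tested. Medium array 2 of the memory cells correlated at r = 0.9954 with ex vivo memory array 2 and at r = 0.9559 with the other medium array, and its Gapdh difference of 2.35 lay within the ex vivo range. Results are therefore given with and without the library labelled medium 2, which also enters the pooled spread of comparisons it is not part of. Leaving out either medium array leaves 1, which adds nothing to that spread. Comparisons without the medium group therefore come out the same in both fits by construction. They count as 1 result, in which the split between the medium arrays no longer enters the spread.

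**Figure D1:**
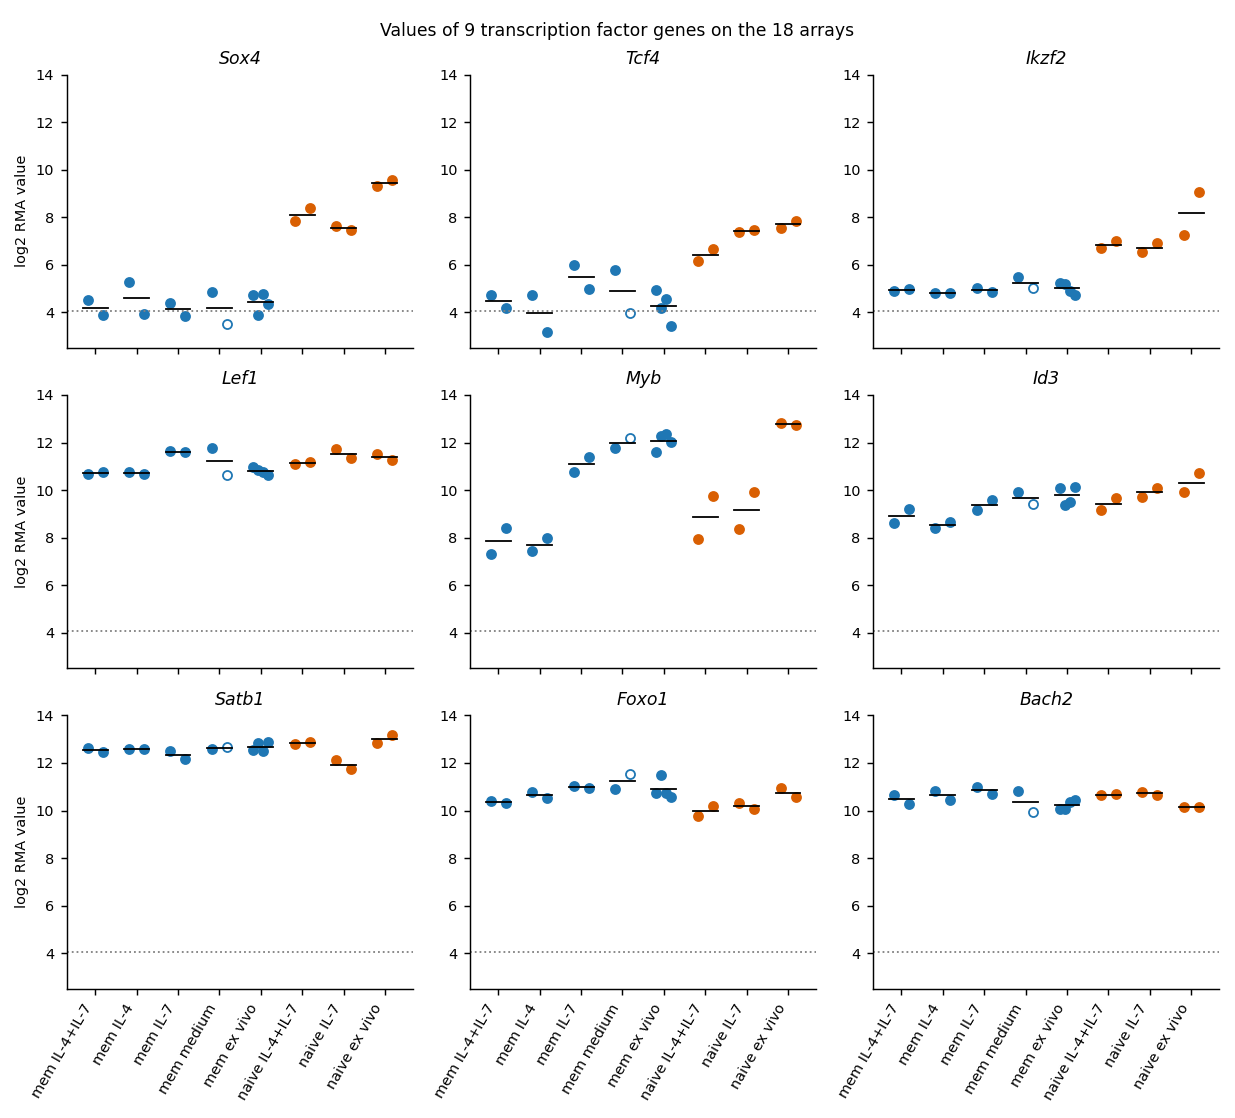
Log2 RMA values (vertical axis) of the 9 genes on each of the 18 arrays, by group (horizontal axis). Memory groups are blue and naive groups orange, bars are group means, the open circle is the library labelled memory in medium, replicate 2, and the dotted line is the filter value of 4.06. Sox4, Tcf4 and Ikzf2 separate memory from naive groups, and Myb is lowest with IL-4 in memory cells.

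The genes fell into sets by the size of their variation, shown in the plot of values by array. Group means of Sox4 spanned 5.31, those of Myb 5.09, of Tcf4 3.73 and of Ikzf2 3.34. The span was 1.78 for Id3, 1.27 for Foxo1, 1.09 for Satb1, 0.91 for Lef1 and 0.69 for Bach2. In Sox4, Tcf4 and Ikzf2 the 3 naive groups held the 3 highest means, while Myb was highest in naive ex vivo cells and lowest in memory cells with IL-4. These are bulk samples, so fewer cells that express a gene and less RNA per cell cannot be told apart. How many of all genes do not overlap between groups of 2 to 4 arrays was not counted. Where groups are said not to overlap, this describes the arrays and adds no support to a difference.

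Sox4, Tcf4 and Ikzf2 were lower in memory cells than in naive cells ex vivo, by 31.8-fold, 10.6-fold and 8.89-fold. These 3 of the 9 genes passed the test as lower (adjusted p under 0.05 in limma over all genes), where 0.907% of all genes passed as lower and 1.93% in either direction. The median difference of the 9 was -0.59, against 0.03 over all genes tested. B-cell markers, 6 of 7 of which were measured, had an array mean of 4.85 to 5.31 on memory and 4.43 to 4.47 on naive ex vivo arrays. Markers of NK cells (4.63 to 5.31 against 4.19 to 4.24) and of macrophages and monocytes (4.70 to 4.86 against 4.47 to 4.51) were also higher. So were those of red cell precursors (4.61 to 5.29 against 4.32 to 4.49) and of CD4 and regulatory T cells (4.95 to 5.24 against 4.79 to 4.81). Those of immature thymocytes and of plasmacytoid dendritic cells overlapped. The part of all these markers in the results was not tested.

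Sox4 measured 4.72, 3.89, 4.78 and 4.36 on memory ex vivo arrays, against 9.29 and 9.57 on naive ex vivo arrays. The groups did not overlap, and memory values lay around the filter value, so the size of the difference is uncertain. It was -4.99 (SE 0.40, adjusted p = 6.92e-06). The same order held after culture. With IL-4 and IL-7, Sox4 measured 4.51 and 3.87 in memory cells against 7.83 and 8.38 in naive cells (difference -3.92, adjusted p = 0.000323). With IL-7 alone it measured 4.39 and 3.85 in memory cells against 7.62 and 7.47 in naive cells (difference -3.43, adjusted p = 0.00094). Sox4 passed in all 3 settings without any 1 of the 18 arrays. Neither memory cells with IL-4 (5.28 and 3.93) nor those in medium (4.85 and 3.51) reached the lowest naive value of 7.47, and the ranges of the 5 memory groups overlapped.

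Tcf4, the E protein gene, measured 4.96, 4.16, 4.57 and 3.44 on memory ex vivo arrays and 7.56 and 7.83 on naive ex vivo arrays, again with no overlap. The difference was -3.41 (SE 0.53, adjusted p = 0.00222), and it missed the threshold without naive ex vivo array 2 (-3.28, adjusted p = 0.0518). After culture with IL-7 the values were 5.99 and 4.98 in memory cells and 7.37 and 7.45 in naive cells, and with both cytokines 4.75 and 4.18 in memory cells and 6.15 and 6.65 in naive cells. The differences of -1.93 (adjusted p = 0.128) and -1.94 (adjusted p = 0.0871) did not pass, but both passed without medium array 2 (adjusted p = 0.0399 and 0.0321), where 2.63% and 4.64% of all genes passed as lower, and without medium array 1, which gave the same values. TCF4 is also the defining factor of plasmacytoid dendritic cells. All 7 markers listed for these cells were measured, several of which T cells also carry, and 6 or 7 of them lay above the filter value in each group. Their mean was 6.78 to 6.98 on memory and 6.96 to 7.06 on naive ex vivo arrays, and the group means of Siglech were 5.44 in memory and 5.24 in naive ex vivo cells. Ccr9, of the same list and also a homing receptor of T cells, was lower in memory cells, as Tcf4 was. It was at 8.58 in memory and 11.55 in naive ex vivo cells (difference -2.97, adjusted p = 8.58e-05). With IL-7 the difference was -2.12 (adjusted p = 0.00525). Pacsin1 was slightly lower in memory ex vivo cells (7.49 against 7.55). The rest of the list, Siglech included, had higher means in memory than in naive ex vivo cells. They were Irf8 (6.998 against 5.934), Cox6a2 (6.12 against 5.66), Flt3 (5.19 against 4.95) and Klk1 (8.28 against 8.19). The part of plasmacytoid dendritic cells in the Tcf4 result was not tested.

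Ikzf2, which encodes Helios, measured 5.25, 5.18, 4.88 and 4.73 on memory ex vivo arrays and 7.27 and 9.05 on naive ex vivo arrays. The naive arrays were apart by more than the whole range of the memory arrays, yet both were above all of them. The difference of -3.15 (SE 0.34, adjusted p = 9.3e-05) passed without any 1 array. With IL-4 and IL-7 it measured 4.91 and 4.96 in memory cells and 6.70 and 6.99 in naive cells (difference -1.91, adjusted p = 0.0175). With IL-7 it measured 5.01 and 4.85 in memory cells and 6.53 and 6.90 in naive cells (difference -1.79, adjusted p = 0.0253). Both cultured differences kept their direction but missed the threshold in fits that left 1 array in a group, at adjusted p of 0.0759 to 0.238 with IL-7, without any of its 4 arrays, and at 0.0533 to 0.155 with both cytokines, without naive array 1 or either memory array. Foxp3, of regulatory T cells in which Helios is also expressed, was below the filter value in every group mean (3.16 to 3.81). The other CD4 and regulatory T cell markers listed were above it on all arrays. Their group means were 4.64 to 5.20 for Cd4, 6.26 to 7.20 for Zbtb7b and 4.82 to 5.07 for Cd40lg. The part of these cells in the Ikzf2 result was not tested.

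With cells cultured alike, Sox4 and Ikzf2 thus passed as lower in memory cells in both cultures, 2 of the 9 genes each time. Among all genes, 1.43% passed as lower with IL-7 (2.7% in either direction) and 2.2% with both cytokines (3.81%). The remaining 6 genes did not pass between memory and naive cells ex vivo. Lef1 measured 10.98, 10.84, 10.76 and 10.65 in memory and 11.51 and 11.28 in naive cells ex vivo. Its difference of -0.59 did not pass (adjusted p = 0.215), but did without medium array 1 or 2 (adjusted p = 0.0342 in both fits), where 2.49% of all genes passed as lower without array 2. Myb differed by -0.71 (95% interval -1.75 to 0.33), Id3 by -0.54 (-1.16 to 0.08), Satb1 by -0.34 (-0.70 to 0.03), Foxo1 by 0.14 (-0.38 to 0.66) and Bach2 by 0.07 (-0.41 to 0.54).

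**Figure D2:**
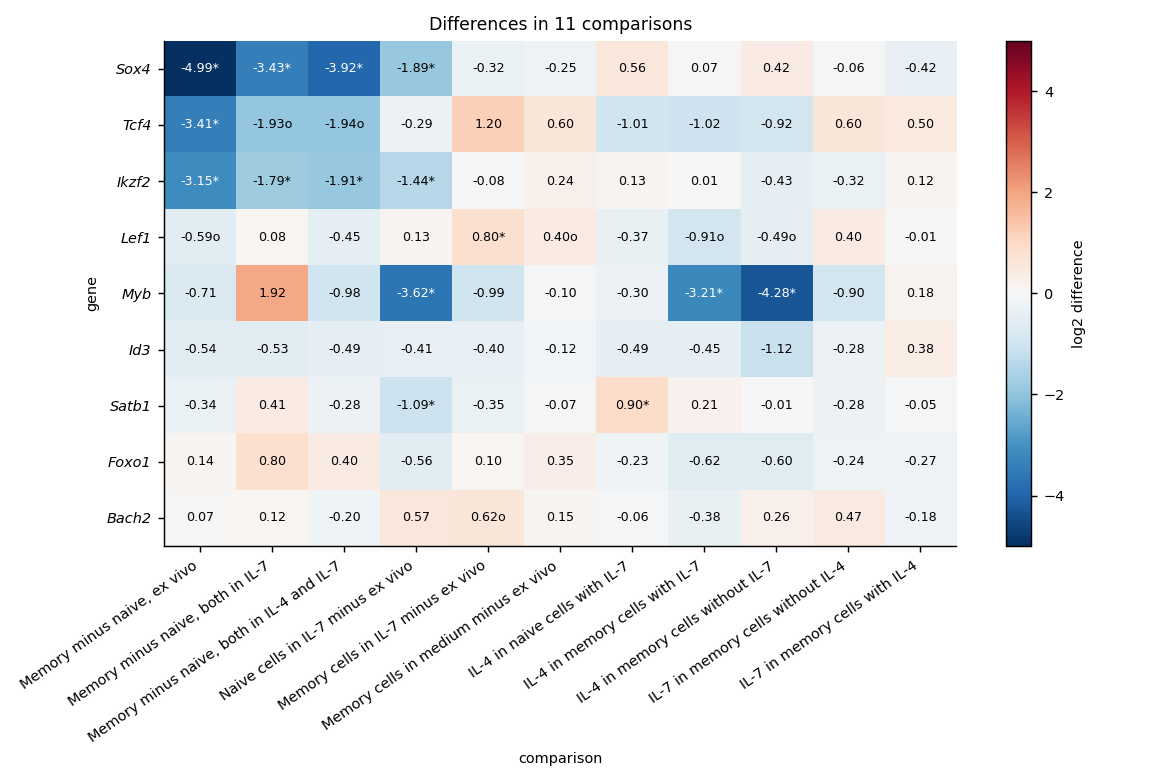
Log2 differences (colour and number) of the 9 genes (rows) in 11 comparisons (columns). An asterisk marks adjusted p under 0.05 in limma, and o marks a difference that did not pass on all arrays but passed without the library labelled medium 2. Sox4, Tcf4 and Ikzf2 are lowest in the memory against naive columns, and Myb in the columns for naive culture and for IL-4 in memory cells.

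Naive cells held for 20 hours with IL-7 had lower Myb (12.3-fold), Sox4 (3.69-fold), Ikzf2 (2.72-fold) and Satb1 (2.13-fold) than naive cells ex vivo. These 4 of 9 genes passed as lower, where 5.8% of all genes passed as lower and 12.8% in either direction. The median difference of the 9 genes was -0.56 and that of all genes 0.07. Myb, the gene of the stem-cell factor named above, measured 8.38 and 9.94 in naive cells with IL-7 and 12.81 and 12.76 ex vivo. Both cultured arrays were far below both ex vivo arrays, although they differed from each other by more than 1. The difference was -3.62 (SE 0.56, adjusted p = 0.00234), and it passed without any 1 array.

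Satb1, the chromatin organiser gene, measured 12.13 and 11.73 in naive cells with IL-7 and 12.85 and 13.20 ex vivo (difference -1.09, SE 0.19, adjusted p = 0.00444). This call was lost without naive ex vivo array 2 (adjusted p = 0.0568) or naive IL-7 array 2 (adjusted p = 0.0668). For Sox4 the difference was -1.89 (adjusted p = 0.0198), with the cultured values of 7.62 and 7.47 below the ex vivo values of 9.29 and 9.57. It lost its call without either ex vivo or either IL-7 array (adjusted p = 0.0612 to 0.13). Ikzf2 differed by -1.44 (SE 0.39, adjusted p = 0.0297), and this rested largely on naive ex vivo array 2, without which the difference was -0.55 (adjusted p = 0.273). Without naive IL-7 array 1 or 2 it also missed the threshold (adjusted p = 0.152 and 0.108). Among genes that did not pass, Bach2 was at 10.79 and 10.67 with IL-7 and 10.16 and 10.16 ex vivo (difference 0.57, adjusted p = 0.169). Foxo1 differed by -0.56 (adjusted p = 0.224), Id3 by -0.41 (adjusted p = 0.491), Tcf4 by -0.29 (adjusted p = 0.83) and Lef1 by 0.13 (adjusted p = 0.823).

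Memory cells held with IL-7 for the same time had higher Lef1 than memory cells ex vivo and no gene of the 9 that passed as lower. Lef1 measured 11.63 and 11.59 with IL-7 and 10.98, 10.84, 10.76 and 10.65 ex vivo. The groups did not overlap, and the difference was 0.80 (SE 0.23, adjusted p = 0.0266), or 1.74-fold. This 1 of 9 genes stands beside 11.1% of all genes that passed as higher and 19.9% in either direction, so the share was near that of all genes. The call was lost without memory ex vivo array 4 (adjusted p = 0.0607), IL-7 array 1 (0.157) or IL-7 array 2 (0.141). Bach2 measured 10.99 and 10.70 with IL-7 and 10.06, 10.07, 10.34 and 10.44 ex vivo. Its difference of 0.62 did not pass (adjusted p = 0.0627) unless medium array 1 or 2 was left out (adjusted p = 0.0129 in both fits, where 15.8% of all genes passed as higher without array 2). Myb was at 10.78 and 11.39 with IL-7 and 11.62, 12.29, 12.38 and 12.02 ex vivo, a difference of -0.99 that did not pass (SE 0.48, adjusted p = 0.163).

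No gene of all those tested passed in limma between memory cells in medium and ex vivo (0 of 13780, 0%), where 1364 genes and none of the 9 had an unadjusted p under 0.05. Without medium array 2, which leaves 1 medium array, 10.8% of all genes passed as higher, and of the 9 genes Lef1 was higher by 0.96 (adjusted p = 0.00301). The medium arrays measured 11.76 and 10.65 for Lef1, and the second of these values is the lowest ex vivo value. Bach2 was likewise split, at 10.84 and 9.92.

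The responses to IL-7 culture of memory and naive cells were set against each other in a test added after the data were seen. None of the 9 genes passed, where 0.0508% of all genes did. The change of Myb was 2.63 higher in memory cells (SE 0.74, 95% interval 1.04 to 4.22, adjusted p = 0.22). That of Sox4 was 1.57 higher (adjusted p = 0.401) and that of Ikzf2 1.37 higher (adjusted p = 0.387, and 2.26 with adjusted p = 0.0419 without naive ex vivo array 1). Without medium array 2, the call for Myb was not reached either (adjusted p = 0.114). With IL-7 in both, Myb was at 10.78 and 11.39 in memory cells and at 8.38 and 9.94 in naive cells, a difference of 1.92 that did not pass (SE 0.56, adjusted p = 0.096). Of the fits with 1 array left out it passed in those without naive array 1 or 2 of both cytokines (adjusted p = 0.0352 in each).

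In memory cells IL-4 lowered Myb whether or not IL-7 was present. With IL-7, Myb measured 7.33 and 8.42 with IL-4 and 10.78 and 11.39 without it. Every IL-4 array was below every array without IL-4, by a difference of -3.21 (SE 0.56, adjusted p = 0.0075), or 9.23-fold. Leaving out array 1 of both cytokines gave -2.66 (adjusted p = 0.085) and leaving out array 2 of IL-7 gave -2.90 (adjusted p = 0.107), both short of the threshold. Without IL-7, Myb measured 7.42 and 7.97 with IL-4 and 11.77 and 12.19 in medium. The groups were apart by more than 3, the difference was -4.28 (SE 0.56, adjusted p = 0.000842), or 19.5-fold, and it passed without any 1 array (-4.07, adjusted p = 0.00588 without medium array 2). Myb was the 1 of the 9 genes that passed in each of these comparisons, where 0.595% of all genes passed as lower with IL-7 (1.81% in either direction) and 0.675% without it (1.94%). The median differences of the 9 genes were -0.45 and -0.49, against 0.08 and 0.06 over all genes.

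In naive cells with IL-7, Myb did not pass with IL-4, at 7.95 and 9.76 with IL-4 and 8.38 and 9.94 without it. These groups overlapped, and the difference was -0.30 (95% interval -1.5 to 0.90, adjusted p = 0.94). Set against each other, the memory and naive responses to IL-4 differed by -2.90 (SE 0.79, 95% interval -4.60 to -1.21), which did not pass over all genes (adjusted p = 0.296, and 0.176 without medium array 2). In that test 0.0726% of all genes and none of the 9 passed. The arrays of the naive and memory responses are separate.

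Lef1 did not pass with IL-4 on all arrays. With IL-7 it measured 10.66 and 10.75 in memory cells with IL-4 and 11.63 and 11.59 without it. The difference of -0.91 (SE 0.27) did not pass (adjusted p = 0.113), but passed without medium array 1 or 2 (adjusted p = 0.00649 in both fits, where 1.7% of all genes passed as lower without array 2), and its dimmer probe set passed at -1.33 (adjusted p = 0.014). Without IL-7, Lef1 measured 10.74 and 10.69 with IL-4 and 11.76 and 10.65 in medium, so the groups overlapped through medium array 2. The difference was -0.49 (adjusted p = 0.459) with that array and -1.05 (adjusted p = 0.0156) without it, where 0.588% of all genes passed as lower, and the dimmer probe set passed with it (-1.10, adjusted p = 0.043). In naive cells the difference was -0.37 (95% interval -0.94 to 0.20, adjusted p = 0.774).

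Id3, the inhibitor of E proteins, was lower by 1.12 in memory cells with IL-4 than in medium, at 8.40 and 8.68 against 9.91 and 9.40, and did not pass (adjusted p = 0.128). Foxo1 differed by -0.62 with IL-7 (adjusted p = 0.337) and by -0.60 without it (adjusted p = 0.38), and Tcf4 by -1.02 and -0.92 (adjusted p = 0.468 and 0.569), with intervals for Tcf4 of -2.32 to 0.28 and -2.22 to 0.38. Bach2 was higher by 0.26 with IL-4 than in medium and did not pass (adjusted p = 0.74). Without medium array 1, which leaves only medium array 2, this difference was 0.72. Sox4, Tcf4, Ikzf2, Foxo1, Satb1 and Id3 passed in neither memory comparison with any 1 array left out.

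**Figure D3:**
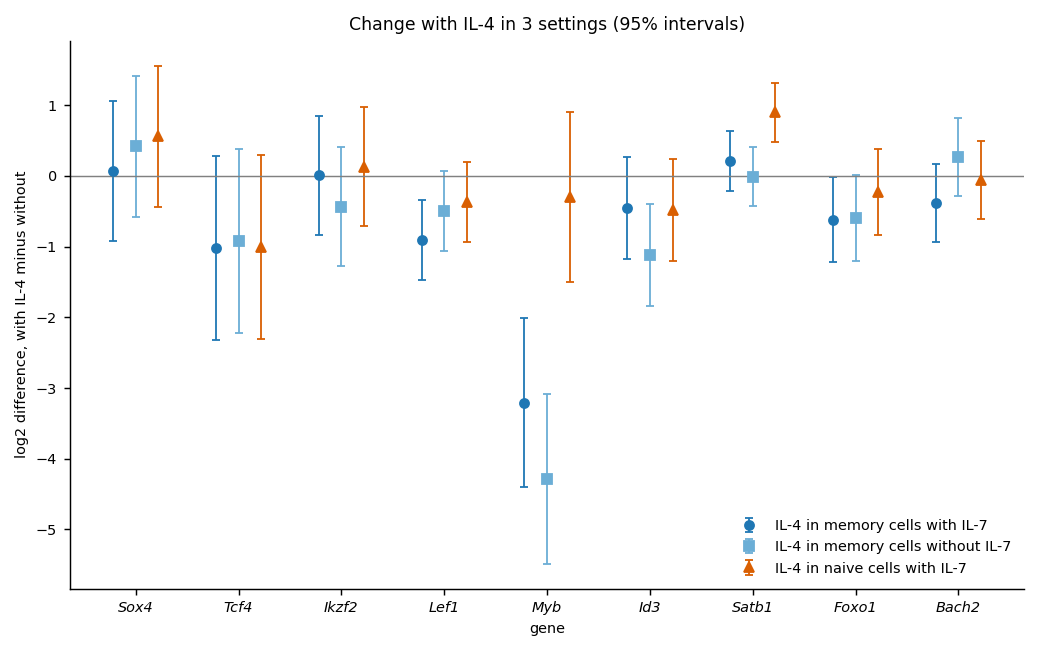
Log2 difference with IL-4 minus without (vertical axis) for the 9 genes (horizontal axis) in memory cells with IL-7 (circles), memory cells without IL-7 (squares) and naive cells with IL-7 (triangles). Bars are 95% intervals of the limma fit; those of Myb in memory cells lie below -2, while the interval of Myb in naive cells includes 0.

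Satb1 was the 1 gene of the 9 that passed with IL-4 in naive cells, as higher, where 0.878% of all genes passed as higher and 1.26% in either direction. It measured 12.80 and 12.86 with IL-4 and IL-7 and 12.13 and 11.73 with IL-7. The groups did not overlap, and the difference was 0.90 (SE 0.19, adjusted p = 0.0404), or 1.87-fold. This comparison and the fall of Satb1 in naive culture share the 2 naive IL-7 arrays, which were the 2 lowest of the 18 for this probe set. The call was lost in 9 of the 18 fits without 1 array, at adjusted p of 0.0531 to 0.38, of which those without naive IL-7 array 1 or 2 or naive IL-4 and IL-7 array 1 or 2 gave 0.0746, 0.38, 0.189 and 0.0603. The others were those without memory ex vivo array 1, without either memory array with IL-4 and IL-7 and without either memory array with IL-4. In memory cells Satb1 differed by 0.21 with IL-7 (95% interval -0.21 to 0.63) and by -0.01 without it (-0.43 to 0.41), and the difference of IL-4 responses between memory and naive cells was -0.69 (adjusted p = 0.462).

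IL-7 itself moved none of the 9 genes past the test in memory cells. Of all genes 0 of 13780 (0%) passed in limma with IL-7 against medium and 0 (0%) with both cytokines against IL-4, while 804 and 286 genes, and none of the 9, had an unadjusted p under 0.05. Against medium, Myb differed by -0.90 (95% interval -2.10 to 0.30), Bach2 by 0.47 (-0.08 to 1.02) and Lef1 by 0.40 (-0.17 to 0.97). Without medium array 1, Lef1 was higher by 0.96 and Bach2 by 0.93, but this leaves only medium array 2, the library most like ex vivo memory array 2. Without medium array 2 these genes differed by -0.16 and 0.01. Added to IL-4, IL-7 gave differences of 0.18 for Myb (-1.02 to 1.38) and -0.01 for Lef1 (-0.58 to 0.56). The test of whether the IL-4 response depended on IL-7 passed for 0 genes (0%) in limma, with 650 genes and none of the 9 at an unadjusted p under 0.05. For Myb the difference of responses was 1.08 (-0.62 to 2.77, adjusted p = 0.839). Without medium array 1, which again leaves only medium array 2, the difference of responses was -0.97 for Lef1 and -1.10 for Bach2.

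**Figure D4:**
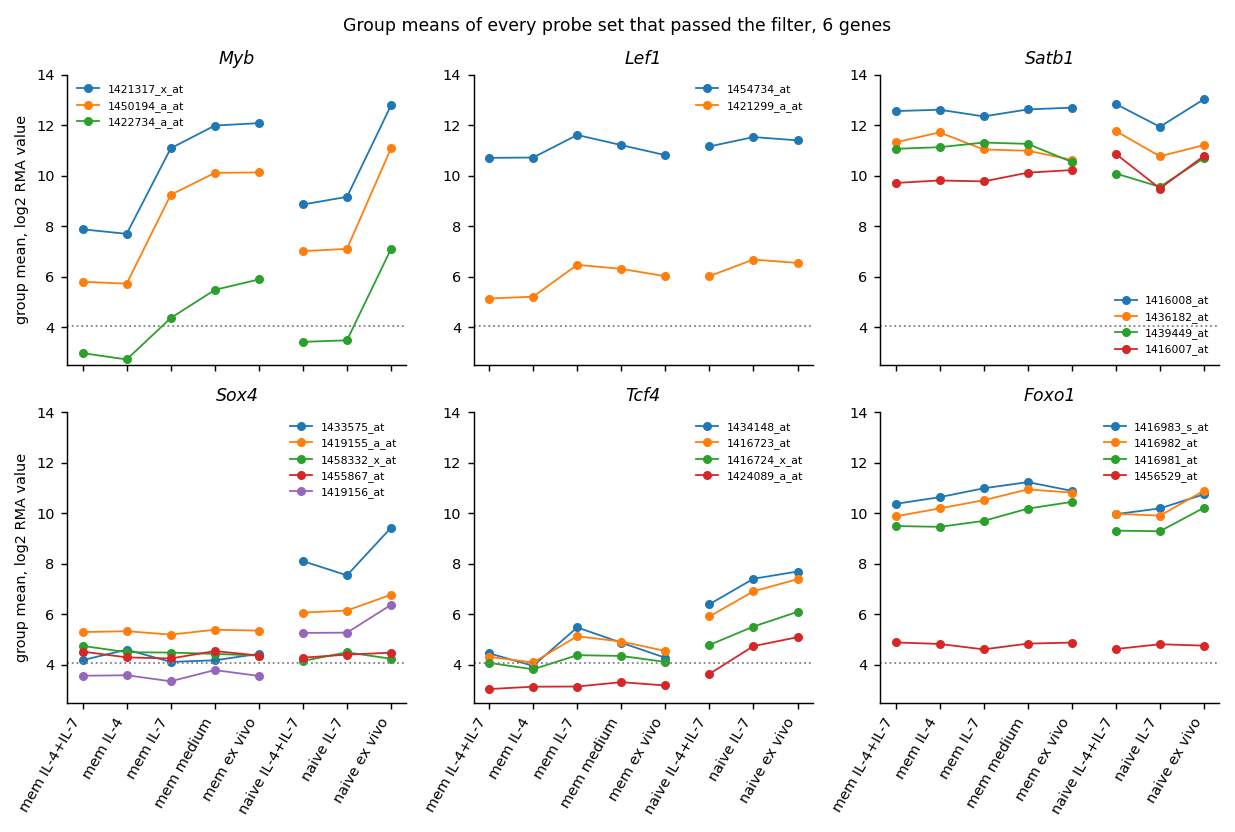
Group means on the log2 scale (vertical axis) of every probe set above the filter for 6 genes, by group (horizontal axis), with 1 line per probe set and separate lines for memory and naive groups. The probe sets of Myb, Lef1 and Tcf4 followed similar courses across groups, while 2 dim ones of Sox4 stayed flat and those of Satb1 differed.

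Several probe sets measure most of these genes, and they did not always run alike, as the plot of probe set means shows. All 3 of Myb passed as lower in naive cells with IL-7 (-3.62, -3.98 and -3.61 by limma over all named probe sets), although the dimmest was above the filter value on 9 of 18 arrays and on neither naive IL-7 array. In memory cells with IL-7, the second measured 5.25 and 6.35 with IL-4 and 8.99 and 9.49 without it and passed (-3.44, adjusted p = 0.0122). The dimmest, whose IL-4 values were under the filter value, did not (-1.39, adjusted p = 0.31). Between memory and naive cells ex vivo, the probe sets of Tcf4 with memory arrays above the filter value gave -3.41, -2.84 and -1.98, and those of Sox4 gave -4.99, -1.42, -0.11 and 0.13. A further probe set of Tcf4 (-1.91), of Sox4 (-2.81) and of Ikzf2 (-2.04) was above the filter value on 0 memory arrays. Each of these entered the fit through naive arrays alone and had to differ, so it adds no support. Of Foxo1, 2 dimmer probe sets passed as lower in naive cells with IL-7 (-0.99 and -0.93), and 1 of them in memory cells with IL-7 (-0.75, adjusted p = 0.0223), where the brightest differed by 0.10. For Satb1 the 3 other probe sets gave 1.0, 0.53 and 1.37 with IL-4 in naive cells and none passed, and between memory and naive cells with IL-7 they gave 0.27, 1.75 and 0.28 against 0.41 for the brightest. Probe sets of 1 gene can cover different transcripts, and they are not replicates.

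Of 30 relatives and partners of these factors listed, 26 were tested. In memory cells ex vivo 2 were lower than in naive cells and 0 higher: Tcf7l2, another TCF-family gene (-1.58, adjusted p = 0.00819), and Bach1, the paralog of Bach2 (-0.85, adjusted p = 0.0313), where 1.93% of all genes passed in either direction. In memory cells IL-4 raised 2 and lowered 0 with and without IL-7, namely Ikzf4 (1.22 and 1.80) and Ikzf3 (1.18 and 1.17), Ikaros-family genes like Ikzf2. Among all genes 1.81% and 1.94% passed. Without medium array 2, Ikzf3 missed the threshold in cells without IL-7 (adjusted p = 0.139), and Ikzf3 was the 1 that rose in naive cells (1.06, adjusted p = 0.0434), where 1.26% of all genes passed. Naive culture with IL-7, where 12.8% of all genes passed, raised 1, Ikzf4 (2.63), and lowered 4, among them the corepressor gene Tle4 (-1.31), Axin2, a target gene of beta-catenin and TCF (-1.25), and Bach1 (-1.01). Memory culture with IL-7, where 19.9% of all genes passed, raised 2, Ikzf4 (0.82) and Foxp1 (0.71), and lowered 4, Id2 (-1.16), Axin2 (-1.02), Tle1 (-1.02) and Tle3 (-0.79). In memory compared with naive cells, with both cytokines, Ikzf3 was higher (1.05) and Ctnnb1, the gene of beta-catenin, lower (-1.17), where 3.81% of all genes passed. With IL-7 alone 0 were higher and 1 lower, Ikzf4 (-1.80), where 2.7% of all genes passed. The median differences of this list stood between -0.28 and 0.04 in all these comparisons, and those of all genes between -0.05 and 0.08.

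Of 24 other genes of naive and stem-like CD8 cells, 22 were tested, and ex vivo 2 were higher in memory cells and 0 lower, the chemokine receptor gene Cxcr5 (3.0) and Gpr183 (2.01). With IL-4 in memory cells, Treml2 was the 1 that rose with IL-7 (2.55, adjusted p = 0.000949). Without IL-7 2 rose, Bcl2 (2.04) and Treml2 (1.86), and 2 fell, Cd28 (-1.91) and Cxcr5 (-1.56), which both missed the threshold without medium array 2 (adjusted p = 0.277 and 0.0656). In naive cells IL-4 raised Treml2 (1.73) and lowered 0. Naive culture with IL-7 raised 1 and lowered 6 of the 22, led by Bcl6 (-2.73) and Cd28 (-2.35), with Bcl2 as the one that rose (2.42). Memory culture with IL-7 raised 4, Slamf6 (1.76), Smc4 (1.39), Il7r (1.01) and Actn1 (0.60), and lowered 4, among them Igfbp4 (-2.15) and Treml2 (-1.5). Of 18 genes under FOXO1 control in T cells, 17 were tested and some are also in the list above. None passed between memory and naive cells ex vivo or with IL-4. Some of them passed without medium array 2, a fit that leaves 1 medium array and to which the shares below do not apply. Their differences on all arrays follow. Klhl24 and Sesn1 differed by -0.83 and -0.60 between memory and naive cells ex vivo. With IL-4 in memory cells, S1pr1 (-1.51), Il7r (-1.24) and Sesn1 (-0.94) were lower with IL-7, and Sesn1 (-0.60) and Il7r (-0.38) without it. In naive cells with IL-4, Bcl6 was higher (2.45) and Il7r lower (-0.85). In naive culture 1 rose, Trib2 (1.73), and 5 fell, and in memory culture 5 rose, among them Pik3ip1 (1.99) and Klhl24 (1.35), and 3 fell, among them Irs2 (-2.81) and Gadd45a (-2.77). The median of these 17 was -0.47 in naive and 0.44 in memory culture, beside 0.07 and -0.05 for all genes. Between memory and naive cells with IL-7, 1 gene of the FOXO1 list was higher, Il7r (1.64), and 4 of the 22 were higher and 0 lower, led by Cxcr5 (4.10). With both cytokines 0 of the 17 passed, and 2 of the 22 were higher, Cxcr5 (3.21) and Nsg2 (0.90). These counts stand beside shares of all genes that passed in either direction. The shares were 12.8% in naive and 19.9% in memory culture with IL-7. Between memory and naive cells they were 1.93% ex vivo, 2.7% with IL-7 and 3.81% with both cytokines. For IL-4 they were 1.81% and 1.94% in memory cells with and without IL-7 and 1.26% in naive cells.

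Among the 9 genes, Sox4 ran most like Ikzf2 over the 8 group means (Pearson r = 0.981), and Tcf4 like Ikzf2 (0.92) and Sox4 (0.895). Myb was closest to Id3 (0.783) and unlike Sox4 (0.14), and Bach2 ran against Satb1 (-0.651) and Myb (-0.583). These values describe 8 points that share arrays and normalisation, and no p is given. Outside the list, the genes most like Sox4 were Prickle1 (0.989), Itm2a (0.987) and Dapk1 (0.983), and those most like Myb were Sypl (0.988), Tob1 (0.981) and Plcxd2 (0.98). Lef1 was closest to Atp1b1 (0.995), Prkacb (0.972) and Wipf2 (0.971), and Satb1 to Zfp868 (0.979), Bcl6 (0.969) and Cytip (0.959). For Tcf4 they were Ephb6 (0.981), Cxxc5 (0.975) and Fchsd1 (0.975), and for Ikzf2 Bend5 (0.98), Basp1 (0.977) and Ranbp6 (0.977). Bach2 was most like Rae1 (0.986), Foxo1 like Slc23a1 (0.961) and Id3 like Trp53bp1 (0.981).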

How the data were processed

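Per the submitters' processing notes, which name RMA and limma without versions, the authors normalised the arrays by RMA, and the deposited table holds 1 log2 value per probe set and array. Symbols came from the array annotation: 34945 probe sets had 1 symbol, 932 several and 9224 none, and those with several or none and 64 controls stayed out of the fit by gene. For each gene, the brightest probe set by its mean was taken for its gene. A gene was tested when it exceeded the 40th percentile of all values (4.06) on at least 2 arrays, which left out 4413 of 18193 genes. limma 3.58.1 (R 4.3.3) fitted 1 model with 8 groups over 18 arrays (10 residual and 4.13 prior degrees of freedom), with two-sided moderated tests and Benjamini-Hochberg adjustment over 13780 genes and a threshold of 0.05. Other probe sets were tested in a fit of 24533 named ones. The script was tested on simulated data. The number of arrays limits the precision. The genes, lists and tests were chosen with earlier results of these data known. The genes named are the 9, the 3 most like each and, of each list, at most 6 that passed in a comparison. Alternatives were other filters, probe set rules, array weights, centring, a variance trend, a replicate block, only the groups compared, and each array left out.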

Additional observations from a re-analysis of the deposited data

How the results depend on the processing

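Counts of the 9 genes past the threshold changed as follows. With IL-4 in naive cells with IL-7 the 1 became 0 when all probe sets were fitted together or averaged per gene, with array weights, with arrays centred on their median, with only the groups compared, and with a replicate block. With only the groups compared, 29 of all 13780 genes passed in this comparison, in place of 173. In memory cells with IL-7, the 1 with IL-4 became 2 with averaged probe sets, array weights or only the groups compared. The last of these settings gave 1040 of all genes in place of 249. For memory cells in IL-7 against ex vivo the 1 became 4, and for memory against naive cells in IL-7 the 2 became 5, with array weights or only the groups compared. With array weights, 5092 of all 13780 genes passed in the first of these comparisons, in place of 2744. In the second, 1387 passed in place of 372. With array weights, memory against naive cells in both cytokines gave 1 in place of 2, and the added difference of IL-7 culture responses 1 in place of 0. Over all genes, the added difference gave 276 in place of 7. Memory against naive cells in IL-7 gave 3 with averaged probe sets, centring or the replicate block, both cytokines 3 with the block, and naive culture 3 in place of 4 with only the groups compared. The 126 single differences kept direction and side of the threshold with no filter, a stricter filter and a variance trend. Over all settings 95 of 3402 values changed sign, 73 of them with 1 array left out and 14 with averaged probe sets, and 0 of these were past the threshold in the fit reported or in that setting. Among them were Lef1 with IL-4 without IL-7 (-1.05 to 0.07) and Lef1 with IL-7 against medium (-0.16 to 0.96) with 1 array left out, and, with the replicate block, Bach2 between memory and naive cells ex vivo (-0.10) and Foxo1 in memory culture (-0.13). The causes were not tested, except for what the design of a fit fixes. Fewer arrays enter a fit of only the groups compared. Under the replicate block, memory ex vivo arrays 3 and 4 share their number with no other array and are taken up by the block terms. Its comparisons with memory cells ex vivo therefore rest on memory ex vivo arrays 1 and 2.

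With 1 array left out, the 9 genes gave 2 to 4 calls for memory against naive cells ex vivo, 1 to 3 with IL-7, 1 to 3 with both cytokines, 1 to 4 for naive culture, 0 to 2 for memory culture with IL-7 and 0 to 1 in medium. IL-4 gave 0 to 2 in memory cells with IL-7, 1 to 2 without it and 0 to 1 in naive cells. IL-7 gave 0 to 2 without IL-4 and 0 to 0 with it, the interaction 0 to 2, the difference of IL-4 responses 0 to 0 and that of culture responses 0 to 1.

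Same-numbered arrays of different groups did not deviate together throughout. Of 56 pairs, 31 had r over 0.1 and 5 under -0.1 (range -0.175 to 0.511). Between groups of 2 arrays both numbers give the same r by construction, so these pairs are not independent. Arrays 1 and 2 of memory cells with both cytokines were closest to the same-numbered arrays with IL-4 (r = 0.9939 and 0.9933). Their r with each other was 0.99. The numbers were not taken to pair arrays. As given above, the replicate block uses memory ex vivo arrays 1 and 2 only in comparisons with memory cells ex vivo. Under the replicate block Satb1 with IL-4 in naive cells (adjusted p = 0.0683) and Lef1 in memory culture (0.69, adjusted p = 0.0939) missed the threshold, while Bach2 in memory culture (0.78, adjusted p = 0.047), Myb between memory and naive cells in IL-7 (adjusted p = 0.0203) and Tcf4 with both cytokines (adjusted p = 0.0498) reached it, and no other of these calls changed.

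Counts over all genes, with the range over other settings and then with 1 array left out, were 266 (259 to 515, 112 to 605) for memory against naive cells ex vivo, 372 (344 to 1387, 86 to 661) with IL-7 and 525 (46 to 752, 78 to 1098) with both cytokines. They were 1764 (1609 to 3064, 261 to 2773) for naive culture, 2744 (1447 to 5092, 3 to 3704) for memory culture and 0 (0 to 0, 0 to 2255) for medium. For IL-4 they were 249 (241 to 1040, 76 to 537) in memory cells with IL-7, 267 (9 to 357, 73 to 2364) without it and 173 (29 to 202, 50 to 674) in naive cells. For IL-7 they were 0 (0 to 0, 0 to 2246) without IL-4 and 0 throughout with it, and for the interaction 0 (0 to 0, 0 to 1298). The difference of IL-4 responses gave 10 (2 to 12, 2 to 367) and that of culture responses 7 (4 to 276, 2 to 127). Signal near the filter value limits the sizes given for Sox4, Tcf4 and Ikzf2 in memory cells, and groups of 2 arrays limit every call.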

Other observations

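Factors of effector and memory cells, a further list of 24 genes, all tested, also changed in culture. In memory cells with IL-7 against memory cells ex vivo 1 rose and 10 fell, where 19.9% of all genes passed. The orphan nuclear receptor genes Nr4a2, Nr4a1 and Nr4a3, which are induced by receptor signalling, fell by 8.11, 6.94 and 6.65 on the log2 scale, Irf4 by 4.29, Nfil3 by 3.82 and Klf10 by 3.66 (limma, adjusted p = 0.00407 to 0.0471), and Runx3 was the 1 that rose (0.52). In naive cells with IL-7 against ex vivo 1 rose and 6 fell, where 12.8% of all genes passed, led by Nr4a3 (-5.24), Klf10 (-3.01) and Nfil3 (-2.69). Between memory and naive cells ex vivo 3 were higher, the T-bet gene Tbx21 (4.83), Hopx (2.59) and Prdm1 (0.85), and 1 lower, Tox (-1.32), where 1.93% of all genes passed. The same 3 were higher after culture with IL-7 and with both cytokines, with 0 lower, where 2.7% and 3.81% of all genes passed. With IL-4 in memory cells Runx1 rose (0.89) and Klf6 fell (-0.86) with IL-7, and Prdm1 rose (0.89) without it, the last not without medium array 2 (adjusted p = 0.189). In naive cells IL-4 lowered Runx3 (-0.83) and raised 0. The shares of all genes that passed with IL-4 were 1.81% and 1.94% in memory cells with and without IL-7 and 1.26% in naive cells.

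Dntt, the gene of terminal transferase and one of 5 markers listed for immature thymocytes, had group means of 9.44 to 11.88 across the 8 groups and was higher in memory cells with IL-7 than ex vivo (2.44, limma, adjusted p = 0.00596). Of the other markers, Ptcra had group means of 4.61 to 4.97, and Rag1, Rag2 and Kit were under 4.06 in all groups.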
